A study of Rattus norvegicus with 4 samples.

Results

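The Reg family of regenerating proteins was represented on the arrays by 5 genes, Reg1a, Reg3a, Reg3b, Reg3g and Reg4, taken as every non-control probe that carried one of these gene names. Each gene had 1 probe, so the family took 5 of the 30367 probes. Of the 5 genes, 4 passed the filter on dim probes and were among the 20012 genes tested, and Reg4 did not pass. Islets were isolated on postnatal day 14 from Sprague Dawley rats, and total RNA was measured. The 4 intrauterine growth restriction (IUGR) samples were offspring of dams whose uterine arteries had been tied off on both sides at embryonic day 18, and the 4 control samples were offspring of dams given sham surgery. Each of 4 two-colour arrays of 1 slide carried 1 IUGR and 1 control sample. Array 1 held IUGR replicate 2 and control replicate 1, array 2 held IUGR replicate 1 and control replicate 2, array 3 held IUGR replicate 4 and control replicate 3, and array 4 held IUGR replicate 3 and control replicate 4, with IUGR in Cy5 on arrays 1 and 2 and in Cy3 on arrays 3 and 4. The labels call the samples biological replicates and say nothing of pup sex, of litters or of how many animals made up a sample. Islets isolated from the pancreas can carry exocrine, duct, blood and neighbouring tissue with them.

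Reg proteins are small secreted proteins built around a C-type lectin domain. In the pancreas, Reg1a is made by acinar cells and was first described in regenerating islets, and Reg3a, Reg3b and Reg3g are the pancreatitis-associated proteins, which acinar cells induce on injury. Reg3b and Reg3g are also made by gut epithelium, where mouse Reg3g acts against bacteria, and Reg4 is known from secretory cells of the intestine. IL-6 and IL-22 induce Reg genes through STAT3, and EXTL3 has been proposed as a Reg receptor.

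The probe sequences are shown because every value below is the brightness of these 60 bases, and closely related genes could share signal through a shared run. The Reg probes had little sequence in common. The longest run shared by any pair was 11 bases, between the Reg1a and Reg3b probes, and it is in capitals. No other probe on the array shared a run of 20 bases with any of the 5. Probes were compared only with probes, not with the transcripts of the other Reg genes. Whether a Reg probe also binds the transcript of another member was therefore not tested.
Reg1a probe: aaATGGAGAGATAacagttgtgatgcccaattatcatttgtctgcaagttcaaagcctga
Reg3a probe: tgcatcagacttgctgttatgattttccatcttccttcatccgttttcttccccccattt
Reg3b probe: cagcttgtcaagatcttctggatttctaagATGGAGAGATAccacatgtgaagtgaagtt
Reg3g probe: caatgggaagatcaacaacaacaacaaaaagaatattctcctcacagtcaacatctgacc
Reg4 probe: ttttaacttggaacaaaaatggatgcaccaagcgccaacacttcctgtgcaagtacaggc

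By the coordinates in the scanner files (rat assembly rn4), 4 of the probes lay within 60.6 kb of chromosome 4. The Reg3b probe lay at chr4:112357807-112358789 on the plus strand, and its 60 bases spanned 983 bases of genome, so that it crossed at least 1 intron. The Reg3a probe lay at chr4:112368639-112368698 on the plus strand. The Reg1a probe followed at chr4:112388950-112389009 on the plus strand, and the Reg3g probe at chr4:112418369-112418428 on the minus strand. The Reg4 probe lay outside the cluster, at chr2:193077924-193077983 on the plus strand. No exon annotation of that assembly was used here.

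Upstream sequence was compared because STAT3 binds the palindrome TTCNNNGAA. RefSeq promoter windows of assembly GRCr8 (300 bases around the gene start) were searched on both strands for TTCNNNGAA, which reads the same way on both, and for TATAAA. TTCNNNGAA occurred once in the Reg1a window, starting 242 bases before the gene start, and once in the Reg3b window, starting 129 bases before it. It did not occur in the windows of Reg3a, Reg3g or Reg4. Of 33469 rat promoter windows of this length, 8.87% held it. TATAAA occurred 29 bases before the start in both Reg1a and Reg3b and 32 bases before it in Reg3g, and 14.2% of windows held it. Reg1a had 2 matches, the other on the opposite strand and past the start, at -36 on the same scale. CACCTG, also searched, had 2 matches in the Reg3b window and in each Reg3a window, and none in Reg1a, Reg3g or Reg4. It was held by 18.8% of windows. The 2 windows with the palindrome are printed from 250 bases before the start to 1 base before it, with the palindrome in capitals.
Reg1a promoter: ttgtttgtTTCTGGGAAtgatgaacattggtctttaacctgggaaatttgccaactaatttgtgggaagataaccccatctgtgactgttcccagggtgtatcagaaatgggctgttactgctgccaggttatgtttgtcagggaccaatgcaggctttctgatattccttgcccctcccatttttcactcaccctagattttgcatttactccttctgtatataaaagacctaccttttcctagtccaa
Reg3b promoter: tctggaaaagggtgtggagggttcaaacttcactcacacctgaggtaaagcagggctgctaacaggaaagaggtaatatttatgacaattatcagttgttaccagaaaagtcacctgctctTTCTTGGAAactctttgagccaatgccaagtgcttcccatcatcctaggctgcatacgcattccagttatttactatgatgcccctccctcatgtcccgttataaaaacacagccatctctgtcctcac
A match is a run of letters, not a measured binding site.

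No difference between IUGR and control islets larger than the spread between arrays was detected for the 4 tested Reg genes. None of the 4 was called by limma at an adjusted p under 0.05. Over all 20012 genes, limma called 0, which is 0% of those tested, and the smallest adjusted p was 0.339. At an unadjusted p under 0.05 the background was 13.7% of genes (1428 higher and 1310 lower in IUGR), and the Reg family gave 0 of 4. A ratio of 1 sign on all 4 arrays was found for 20.7% of genes and for 0 of the 4 Reg genes.

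Reg1a, the member named for regenerating islets, had log2 levels of 11.13, 11.28, 12.57 and 12.64 in the IUGR samples of arrays 1 to 4, against 10.89, 11.84, 11.93 and 12.69 in the control samples of the same arrays. The groups overlapped, and array 1 was the lowest and array 4 the highest in both. The level averaged 11.90 ± 0.81 in IUGR and 11.84 ± 0.74 in control samples (SD, n = 4 each). The log2 ratio of IUGR over control was 0.24, -0.56, 0.64 and -0.06 on arrays 1 to 4, higher on 2 arrays and lower on 2. The limma estimate was 0.06 ± 0.19 (SE, 4 arrays), with a 95% interval of -0.42 to 0.55 and an adjusted p of 0.856. As a fold, that is 1.05 with an interval of 0.745 to 1.47 under the main settings. Those bounds do not hold under every setting. With median centring the log2 estimate was -0.33 ± 0.36 (SE).

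Reg3a, a pancreatitis-associated protein, had log2 levels of 6.73, 6.95, 7.29 and 8.18 in IUGR samples, against 6.65, 7.55, 6.86 and 8.10 in control samples. Array 4 was the highest in both groups, and the groups overlapped. The probe was well above background in 3 of 4 IUGR and 4 of 4 control samples. Its log2 ratios were 0.07, -0.60, 0.43 and 0.07. The limma estimate was -0.01 ± 0.14 (SE), with an interval of -0.38 to 0.37 and an adjusted p of 0.982. That interval depends on the background correction and does not bound the difference under every setting. The SE was 0.28 with an offset of 0 and 0.51 with Agilent's processed signals. It was 0.13 with outlying local backgrounds kept as measured. The IUGR sample not above background was on array 2, which gave the ratio of -0.60.

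Reg3b, the pancreatitis-associated protein known as PAP, had log2 levels of 7.15, 6.97, 7.91 and 8.41 in IUGR samples, against 6.83, 7.57, 8.48 and 8.66 in control samples. The IUGR sample was the lower of the pair on arrays 2, 3 and 4 and the higher on array 1, and the group ranges overlapped. The probe was well above background in all 8 samples. Its log2 ratios were 0.32, -0.60, -0.57 and -0.24. The limma estimate was -0.27 ± 0.17 (SE), with an interval of -0.73 to 0.18 and an adjusted p of 0.413. That interval depends on the offset too, as the SE was 0.34 with an offset of 0 and 0.49 with Agilent's processed signals. Without array 1 the estimate was -0.50, with an adjusted p of 0.0818 by limma. In that fit 6211 of 20022 genes had an unadjusted limma p under 0.05, against 2738 of 20012 with all arrays, and 0 were called. The Reg3b estimate was -0.04, -0.19 and -0.35 without arrays 2, 3 and 4. Array 1 was also the only array with the brighter channel in IUGR, at a median signal of 344 against 107 in control. On arrays 2 to 4 the median signal was 105 to 200 in IUGR and 314 to 823 in control channels. With channel brightness as a covariate in place of the dye term, the Reg3b estimate was -0.07 ± 0.11 (SE), with a limma adjusted p of 0.861.

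Reg3g, known in mice as a gut antibacterial lectin, was near background. Its log2 levels were 5.96, 5.89, 6.49 and 6.18 in IUGR samples, against 5.94, 6.05, 6.82 and 6.37 in control samples. Only 1 of 4 IUGR samples and 2 of 4 control samples were well above background, on arrays 3 and 4, so the probe passed the filter through the control samples alone. Array 3 was the highest in both groups. The log2 ratios were 0.02, -0.16, -0.34 and -0.18, and the limma estimate was -0.17 ± 0.08 (SE), with an interval of -0.38 to 0.05 and an adjusted p of 0.348. The offset of 50 in the background correction compresses ratios this close to background, so the estimate and its interval do not bound the difference. The estimate ranged from -0.79 with Agilent's processed signals to 0.34 with median centring.

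**Figure D1:**
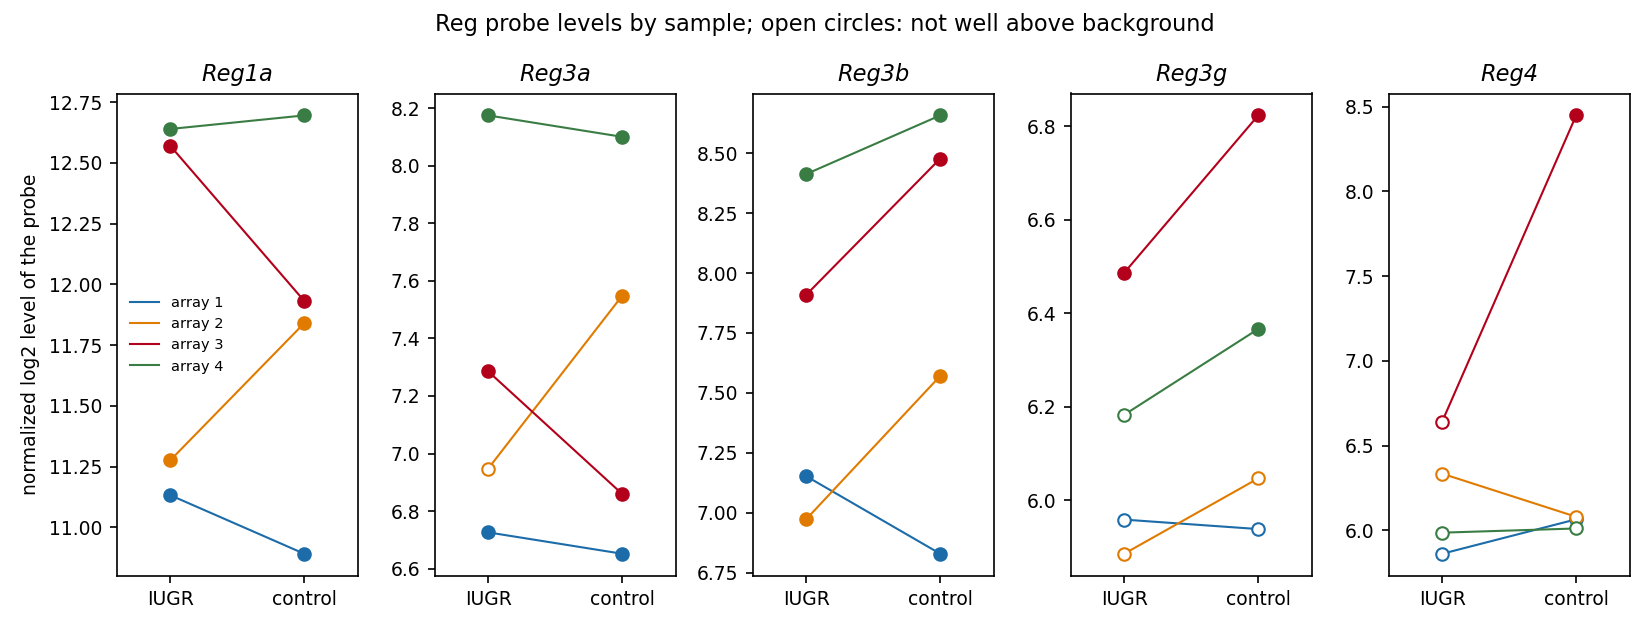
Normalized log2 level of each Reg probe (y axis, a separate scale in each panel) in IUGR and control samples (x axis), with the 2 samples of an array joined by a line. Open circles were not well above background. Reg1a and Reg3b were well above it in all 8 samples and Reg4 in 1, control replicate 3.

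**Figure D2:**
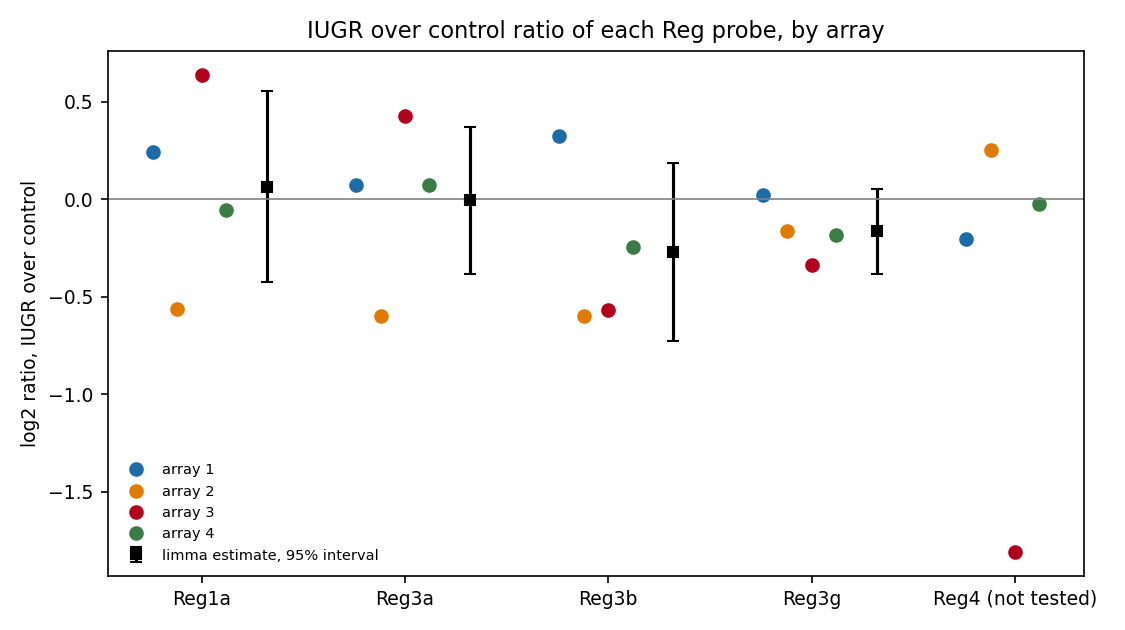
Log2 ratio of IUGR over control (y axis) on each of the 4 arrays for each Reg probe, with the limma estimate and its 95% interval as a black square and bar. The intervals of all 4 tested genes include 0, and Reg4, which was not tested, has 1 ratio of -1.81 on array 3.

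The dye term of the fit, Cy5 over Cy3, was -0.23 for Reg1a, -0.26 for Reg3a, 0.13 for Reg3b and 0.09 for Reg3g on the log2 scale. For Reg1a and Reg3a it was larger than the group estimate.

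The ratios of the Reg genes lay close on some arrays and apart on others. On array 2, Reg1a, Reg3a and Reg3b had ratios of -0.56, -0.60 and -0.60. On array 3 they parted, with Reg1a at 0.64 and Reg3a at 0.43 but Reg3b at -0.57, so that the Reg1a ratio exceeded the Reg3b ratio by 1.21 there and by -0.08, 0.03 and 0.19 on arrays 1, 2 and 4. Replicate spots gave a measure of the spread between spots of a probe. The median SD of the log2 ratio within an array was taken over other probes of similar brightness with at least 5 spots. It was 0.025 to 0.034 near Reg1a and 0.053 to 0.094 near Reg3b. The gap on array 3 was therefore larger than the spread between spots, and it rests on 1 pair of samples. The spread between spots leaves out dye bias, which can differ by probe. The dye term was -0.23 for Reg1a and 0.13 for Reg3b, and its part in the gap was not tested. The mean log2 ratio of the 4 tested Reg genes was 0.16, -0.48, 0.04 and -0.10 on arrays 1 to 4. Over arrays it was -0.09 ± 0.28 (SD, n = 4 arrays), a description with no test. It includes Reg3g, which passed the filter through the control samples alone, and that favours a negative value. With a stricter filter, which kept Reg1a and Reg3b, the mean was -0.10.

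Reg1a differed more between arrays than between the samples of an array: the mean of its 2 samples was 11.01, 11.56, 12.25 and 12.67 on arrays 1 to 4. Reg3b followed the same order at 6.99, 7.27, 8.19 and 8.54. Across the 8 samples, levels correlated with those of Reg1a at r = 0.89 for Reg3b, 0.84 for Reg3a and 0.60 for Reg3g, as a description; samples of an array share their hybridisation. The 5 other named genes most like Reg1a by this measure were Oas1a (0.957), Ptar1 (0.942), Igfbp7 (0.942), Olr1509 (0.938) and Ager (0.938). Of these, Oas1a and Olr1509 spanned only 0.21 and 0.22 log2 units over the 8 samples, against 1.80 for Reg1a.

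Acinar genes, the digestive enzymes and their regulators, were present in every sample: 28 of 29 on the array were well above background in each, with a summed log2 level of 20.02 to 21.30 in IUGR and 19.64 to 20.95 in control samples. The islet hormones and transcription factors were also present, with all 22 of 22 above background throughout. The median correlation with Reg1a over the 8 samples was 0.73 for the 28 tested acinar genes and 0.03 for all genes. The acinar genes ran from -0.07 for Bhlha15, a regulator, to 0.90 for Pla2g1b, a pancreatic phospholipase, and Clps, colipase. Amy2 was at 0.54. In bulk samples, fewer cells of a type and less RNA per cell cannot be told apart.

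The Reg and acinar ratios were set side by side by array, with no test. The Reg mean minus the acinar mean was -0.17, -0.42, -1.57 and 0.11 on arrays 1 to 4, so it changed sign on array 4. Of the 28 acinar genes, 27 had a positive estimate, with a median log2 ratio of 0.39, against 52.9% positive and a median of 0.01 over all genes, and limma called 0 of them. By array, the acinar median was 0.34, -0.08, 1.57 and -0.26, with array 3 the highest. Without array 3 the median over the acinar genes was -0.05, with median centring it was -0.03, and without array 4 it was 0.79. Array 3 paired IUGR replicate 4, which had the highest summed acinar level (21.30), with control replicate 3 (19.68), the sample in which gut epithelium genes were high. On that array the acinar genes ran from 0.27 to 3.28, led by Amy2, an amylase, at 3.28. Reg1a and Reg3a, at 0.64 and 0.43, were each below 26 of the 28, and Reg3b and Reg3g were below all 28. On array 4, where the acinar median was below 0, only 9 of 28 acinar genes were above Reg1a and 14 above Reg3b. The part of acinar content in the Reg ratios was not tested.

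**Figure D3:**
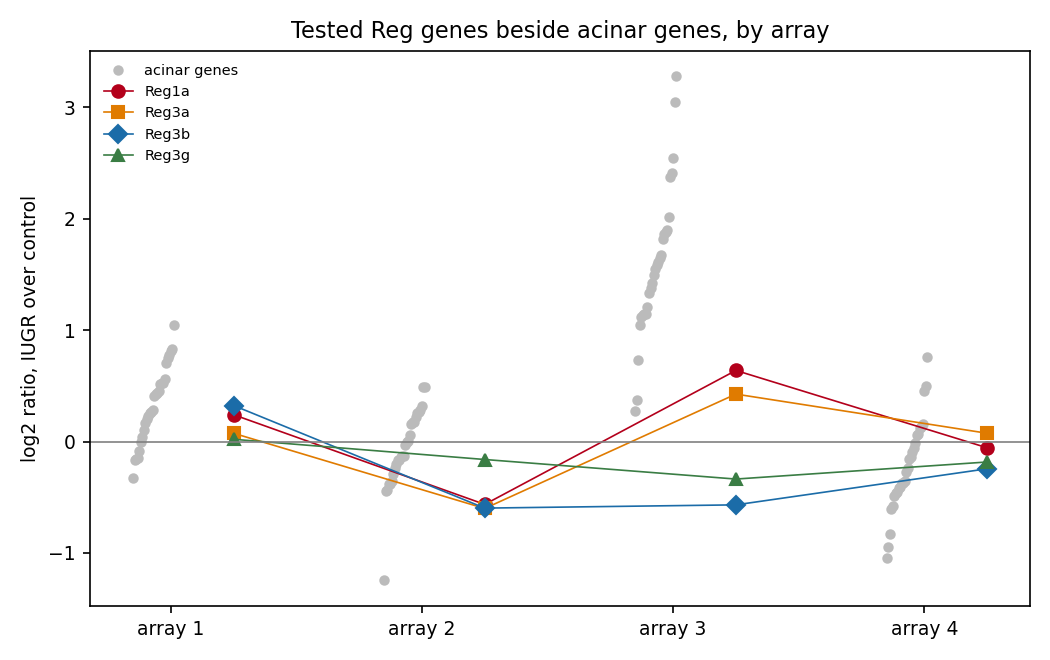
Log2 ratio of IUGR over control (y axis) on each array (x axis) for the 28 tested acinar genes (grey points, ordered by value) and the 4 tested Reg genes (coloured, joined across arrays). On array 3 the acinar genes lie between 0.27 and 3.28, while Reg3b lies at -0.57.

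Reg4, the intestinal member, was above background in 1 sample. Its log2 levels were 5.86, 6.33, 6.64 and 5.99 in IUGR samples, against 6.06, 6.08, 8.45 and 6.01 in control samples. Control replicate 3, on array 3, stood alone: its signal was 790 against a local background of 42, while the other 7 samples were not well above background. With the main settings, the level in IUGR replicate 4 on array 3 was at least 3.50-fold lower than in control replicate 3. No fold is given over the groups, since 3 of the 4 control samples were not well above background either. The bound sets IUGR replicate 4 at the higher of its own signal and the lowest signal of a probe well above background on that array. Levels came from separate channels after loess and Aquantile. The log2 ratio on array 3 was -1.51 with median centring and -0.15 with outlying local backgrounds kept as measured. The bound does not hold under either setting. On the other 3 arrays the log2 ratios were -0.20, 0.25 and -0.02. Control replicate 3 was also the brightest channel, with a median signal of 823 against 105 to 586 in the other 7.

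Gut epithelium genes were high in the same sample. Of the 12 on the array, 8 had their highest level of all samples in control replicate 3, where 13.8% of all genes had theirs. Fabp2, the intestinal fatty acid binding protein, had a log2 level of 12.92 there, against 7.74 or less elsewhere. Lgals4, an intestinal galectin, reached 10.63, against 7.43 or less in the other samples. Both genes had their next highest level in IUGR replicate 4, which shared array 3 with it. Muc2, the main intestinal mucin, was above background in that 1 sample alone, at 7.72, and Cdx2, an intestinal transcription factor, reached 7.91, against 6.43 or less elsewhere. Not every list member followed: Cdx1 was lowest there, at 11.69, and Lgr5, Spdef and Vil1 were not highest there. The summed log2 level of the list was 12.61 to 13.25 in IUGR and 12.63 to 14.00 in control samples. Cdx1, at 11.69 to 12.89, was the brightest list gene in every sample but control replicate 3. It weighs most in the sum there, so the sum does not measure gut content. In IUGR samples 7 to 9 list genes were above background, against 9 to 12 in control samples. Of the 214 probes above background in control replicate 3 alone, 213 were measured on all arrays, and among these Reg4 ranked 8th by its gap to the next sample. This ranking was chosen after the Reg4 values were seen. Abp1, Mep1b, Clca1, Nts and Adamdec1 ranked above it. For the other samples, the number of probes above background in 1 sample alone was 6 to 438. The part of gut tissue in the Reg4 value was not tested.

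**Figure D4:**
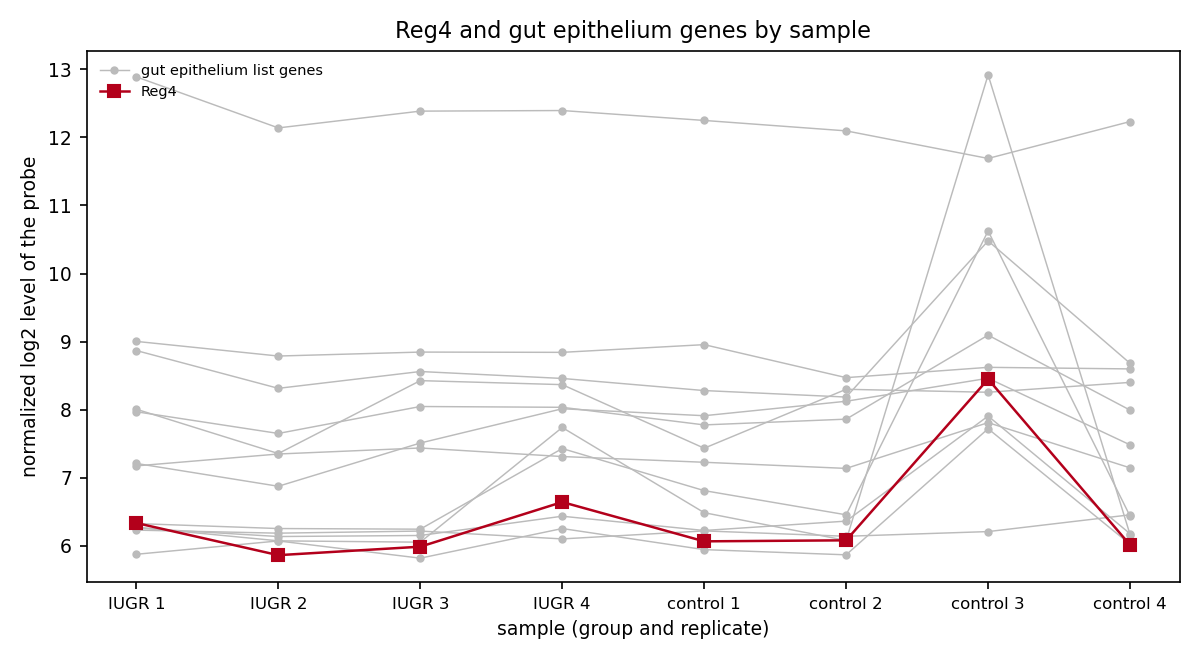
Normalized log2 level (y axis) of Reg4 (red) and of the 12 gut epithelium genes on the array (grey) in each IUGR and control sample (x axis). Reg4 stands at 8.45 in control replicate 3 and at 6.64 or less in the other samples, and Fabp2 stands at 12.92 in the same sample.

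Genes related to the Reg family were described from lists, and limma called 0 genes in each of them. With median centring in place of loess, the list medians given here changed sign for 5 of the lists, to -0.07 for the heparan sulphate enzymes, -0.34 for the injury response, 0.29 for the other C-type lectins, -0.25 for the islet endocrine genes and -0.03 for the acinar genes. The 4 tested genes of each list with the smallest unadjusted limma p had limma adjusted p-values of 0.339 to 0.383. Among 25 tested genes of IL-6 and IL-22 signalling, the inducers of Reg genes, 16 had a positive and 9 a negative estimate, with a median log2 ratio of 0.08, and 2 in each direction had an unadjusted p under 0.05, which is 16% of the list beside 13.7% of all genes. The median was 0.03 without array 2. Il22ra2, the soluble antagonist of IL-22, had log2 ratios of -0.09, -1.42, -2.81 and -3.34 and an estimate of -1.92 ± 0.24 (SE), with 2 of 4 IUGR and 3 of 4 control samples well above background. Tnf, an inflammatory cytokine, was at 0.66 ± 0.09, Jak2, a receptor-associated kinase, at -0.29 ± 0.10, and Lifr, the leukaemia inhibitory factor receptor, at 0.69 ± 0.24. Among 20 acute phase targets of STAT3, 8 estimates were positive and 12 negative, with a median of -0.17, and of -0.09 without array 2 and -0.11 without array 4. Of these, 1 positive and 6 negative estimates had an unadjusted p under 0.05, which is 35% of the list beside 13.7% of all genes. Such an excess was not particular to this list. The share was 73.3% for leukocyte, 40% for injury response, 31.8% for islet endocrine, 30.8% for other C-type lectin and 28.6% for duct genes. It was 10.7% for acinar genes, 9.1% for gut epithelium genes and 0% for the heparan sulphate enzymes. The protease inhibitor A2m had log2 ratios of -0.16, -1.04, -1.74 and -1.13, negative on all 4 arrays, and an estimate of -1.02 ± 0.19. Junb, an AP-1 subunit, was at -0.72 ± 0.15, and Lbp and Lcn2, which bind lipopolysaccharide and siderophores, were both at -0.34 ± 0.10.

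For EXTL3 and the enzymes of heparan sulphate chains, 7 of 12 estimates were positive and 5 negative, with a median of 0.06 (0.02 without array 2) and none at an unadjusted p under 0.05. Extl3 itself had log2 ratios of -0.18, 0.55, 0.68 and 0.33 and an estimate of 0.34 ± 0.15. The sulphotransferases Hs6st1 and Hs3st1 were at 0.21 ± 0.08 and -0.31 ± 0.17, and the epimerase Glce was at -0.37 ± 0.21. In the list of pancreas injury response genes, 12 of 20 estimates were positive and 8 negative, with a median of 0.03, and of -0.06 without array 3. Nupr1, a stress-induced chromatin protein, was at 0.56 ± 0.11, the transcription factors Egr1 and Atf3 were at -0.53 ± 0.11 and -0.46 ± 0.16, and Lcn2 is a member here too. Atf3 had log2 ratios of 0.69, 0.05, -0.98 and -1.59, which changed sign between arrays. Among 13 other C-type lectins, 5 estimates were positive and 8 negative, with a median of -0.01. The macrophage lectin Clec10a was at 0.85 ± 0.09, Clec12a and the hepatic receptor Asgr2 were at 0.48 ± 0.10 and 0.41 ± 0.09, and the surfactant collectin Sftpd was at -0.93 ± 0.14.

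Markers of other cells of an islet preparation gave the following values. Duct genes had 3 positive and 11 negative estimates of 14 tested, with a median of -0.20, and of -0.12 without array 2. Krt19, a duct keratin, was at -0.64 ± 0.10, the chloride channel Cftr at -1.05 ± 0.24, Onecut1 at -0.56 ± 0.17 and Epcam at -0.32 ± 0.11. Leukocyte genes had 6 positive and 9 negative estimates of 15, with a median of -0.39, of -0.12 without array 2 and of -0.05 with channel brightness as a covariate. The lymphocyte genes Cd79b and Cd3d were at -1.05 ± 0.18 and -1.04 ± 0.20, and Csf1r, the macrophage growth factor receptor, was at 0.62 ± 0.12. Islet endocrine genes were split at 12 positive and 10 negative of 22, with a median of 0.13, and of 0.07 without array 3. Ghrl, ghrelin, was at -0.97 ± 0.09, Sst, somatostatin, at -0.27 ± 0.09 and Slc2a2, the beta-cell glucose transporter, at 0.32 ± 0.09. In the acinar list, Bhlha15, Rbpjl, Spink3 and Amy2 were at 0.38 ± 0.09, 0.42 ± 0.13, 0.64 ± 0.22 and 1.16 ± 0.52. Gut epithelium genes had 2 positive and 9 negative estimates of 11 tested, with a median of -0.26, of -0.06 without array 3 and of -0.53 without array 4. Of these 11, 4 passed the filter through the control samples alone, which favours negative estimates, and the median was -0.06 among genes above background in all 8 samples. Agr2, a secretory-cell protein, was at -0.59 ± 0.11 and Cdx1 at 0.39 ± 0.19. Lgals4 was well above background in 1 of 4 IUGR and 4 of 4 control samples, and Cdx2 in 0 of 4 IUGR and 2 of 4 control samples, so no estimate is given for either.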

How the data were processed

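RNA from islets of 4 IUGR and 4 control samples was compared on 4 two-colour arrays. Per the file headers, the authors extracted the deposited intensity values (mean signals, local backgrounds and processed signals) with Agilent Feature Extraction 10.10.1.1, together with a log10 ratio of Cy5 over Cy3, which was not used for any result. Deposited alongside is a table of log2 ratios by spot, with neither scale nor direction stated in the labels. Set against the scanner values, it ran as Cy5 over Cy3 (r 0.986 to 0.998 across probes), with column medians of 0.008, -0.026, -0.014 and -0.029. Per the submitters' processing notes, limma was used, with no version or settings.

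The software was limma 3.58.1 under R 4.3.3. Background was corrected by normexp with an offset of 50, after outlying local backgrounds were set to the median of their array and channel, and arrays were normalized by loess. Feature outliers were left out and spots of a probe averaged. Levels of single samples came from Aquantile scaling. Each gene was read from its brightest probe, and testing required a value on all 4 arrays and a signal well above background in at least 2 of 4 IUGR or 2 of 4 control channels. Ratios were turned to IUGR over control and fitted with a dye term, with Benjamini-Hochberg adjustment over all 20012 genes, 2 residual degrees of freedom and 2.76 prior ones. The fit was tested on simulated data. Between 61.8% and 77.2% of probes were well above background per channel, and 4 samples a group limit the precision. Ratios correlated across genes between arrays at r from -0.30 (arrays 1 and 4) to 0.63 (arrays 3 and 4).

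The members and the gene lists were chosen with earlier results of these data known. The genes named are every Reg probe, the 4 tested genes of each list with the smallest unadjusted limma p, and the 5 most like Reg1a, the brightest tested Reg probe. Some genes that this rule names are not reported here. Gut genes and genes of control replicate 3 named beside Reg4 were chosen after their values were seen. Alternatives covered the background correction, normalization, filter, source of values, array weights, dye term, channel brightness, replicate block, probe choice, single arrays and acinar content.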

Additional observations from a re-analysis of the deposited data

Results flagged for a closer look

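Reg4 in the control samples was set apart because control replicate 3 lay far from the other 3: its gap to the nearest of them was 0.972 of the group's range, above Dixon's 95% critical value for 4 samples. Of 15 groups of Reg values screened this way, 1 passed, and chance passes about 1 in 20. The log2 level was 8.45 in that sample, while the other 3 control samples lay between 6.01 and 6.08. Those 3 were not well above background, so their narrow range is that of values at the floor. With such values a single detected sample passes the screen readily, and the chance rate does not apply to this group.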

How the results depend on the processing

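No Reg gene was called under any of the 18 settings. The number of genes called was 0, and 15 genes and 15 probes with median centring. The Reg family mean of -0.09 became -0.51 with the acinar mean of each array subtracted and ranged from -0.256 to 0.0667 with 1 array left out. It kept its sign under the other settings (-0.33 to -0.03). The value of -0.33 came with processed signals, where Reg3g was at -0.79. Reg3b was negative in all 18 settings (-0.50 to -0.04), with limma adjusted p-values of 0.0818 to 0.970. Not all of these settings bear on the sign. With no filter, array weights, no dye term, the replicate block or the mean over probes, the Reg3b estimate and the family mean did not move. A stricter filter also left the Reg3b estimate as it was. Reg1a ranged from -0.33 to 0.27, Reg3a from -0.19 to 0.16 and Reg3g from -0.79 to 0.34, so their signs depend on the setting. The Reg4 log2 ratio on array 3, -1.81, was -3.08 with an offset of 0, -2.78 with no background subtraction, -5.12 with processed signals and -3.02 in the deposited ratios. It was -1.51 with median centring. It was -0.15 with outlying backgrounds kept as measured, where a local background on array 3 reached 64032. The count of genes at an unadjusted p under 0.05, 2738 with all arrays, was 6211 when array 1 was left out, 936 when array 2 was and 463 when array 3 was. The cause of these moves was not tested. With the replicate block, 0 genes were called and the adjusted p of Reg3b was 0.580. Samples of the same number deviated together at r = 0.199, -0.273, 0.321 and 0.050, so the numbers were not taken to pair them.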
